A study of Mus musculus with 235 samples.

Results

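The genes described belong to families of enzymes that add or remove marks on histones and DNA, and what each acts on was not tested. They were chosen by symbol: the Hdac and Sirt deacetylases, the Kat acetyltransferases, the Kmt, Setd and Ezh methyltransferases, the Kdm demethylases, the Dnmt DNA methyltransferases and the Tet dioxygenases, with a mean of at least 5 CPM over all libraries. CPM is the usual unit of counts scaled to the total of each library. Of 27998 genes in the count table, 72 had such a symbol, and 64 of these reached 5 CPM. The 64 comprised 11 Hdac, 6 Sirt, 8 Kat, 16 Kdm, 2 Dnmt and 3 Tet genes, and 18 Kmt, Setd and Ezh genes. The mean level and the symbol were the only criteria, and the response to treatment was not one of them. Earlier results of these data were known when the group was chosen. The study gave 15 male C57Bl/6 mice, 3 months old, the synthetic glucocorticoid dexamethasone by intraperitoneal injection (10 mg per kg), and gave 15 others of the same strain, sex and age saline as vehicle. After 4 h the perfused brains were taken, and RNA was extracted from tissue punched out of 8 regions, whose labels are dDG, vDG, dCA1, vCA1, AMY, PFC, PVN and CER. Each library is 1 region of 1 animal, with 13 to 15 libraries per region and arm, and the labels also give 4 library plates and 5 punching dates.

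Histone acetylation loosens chromatin and is written by acetyltransferases and erased by deacetylases, while histone methylation can mark active or silent chromatin depending on the residue. DNA methyltransferases place methyl groups on the cytosine of CpG dinucleotides, and Tet enzymes oxidise them, which is the first step of their removal. The glucocorticoid receptor, the target of dexamethasone, is a transcription factor that works with acetyltransferases and deacetylases as partners, and marks of this kind are studied in the brain for their part in stress responses and memory.

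The median library held 742957 counts, the smallest 268538 and the largest 1451422. The arms were checked with 4 known glucocorticoid target genes: Fkbp5, Tsc22d3, Sgk1 and Cdkn1a each rose in 8 of 8 regions (edgeR quasi-likelihood test, Benjamini-Hochberg adjusted p at most 0.0236). The regional labels were less clear. A summed list of 8 dentate granule cell markers averaged 1353 CPM in vehicle dCA1, compared with 1182 CPM in vehicle dDG. Within vCA1 it averaged 238 CPM with vehicle and 412 CPM with dexamethasone. In CER a summed list of 6 cerebellar granule cell markers ran from 31.6 to 351 CPM (median 92.9) in vehicle libraries, compared with 237 to 841 CPM (median 399) in PVN, and Gabra6, Cbln3 and Pcp2 were too low to test in any region. Across the 4 hippocampal regions, 8 libraries stood apart: 3 labelled dCA1 or dDG had a dentate sum under 200 CPM, and 5 labelled vCA1 or vDG had a cerebellar granule sum over 1000 CPM. RNA integrity (RIN) averaged 7.75 in vehicle PFC and 5.91 to 6.69 in the other vehicle groups.

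Tet2 and Ezh1 gave the smallest p-values in the test averaged over regions described below, and the DNA just upstream of their start sites is shown because CpG dinucleotides are the substrate of the Dnmt and Tet enzymes. The sequences are from RefSeq (GRCm38.p6), on the minus strand of the genome and written 5′ to 3′ along the gene, and each is the 250 bases before a start site. CpG dinucleotides are in capitals. The Tet2 sequence is chr3:133544391-133544640 and the Ezh1 sequence chr11:101226464-101226713. In GENCODE M21 both have 0 bases in an exon of any gene: that of Tet2 lies between exons inside the gene, and that of Ezh1 just before its first exon.
Tet2: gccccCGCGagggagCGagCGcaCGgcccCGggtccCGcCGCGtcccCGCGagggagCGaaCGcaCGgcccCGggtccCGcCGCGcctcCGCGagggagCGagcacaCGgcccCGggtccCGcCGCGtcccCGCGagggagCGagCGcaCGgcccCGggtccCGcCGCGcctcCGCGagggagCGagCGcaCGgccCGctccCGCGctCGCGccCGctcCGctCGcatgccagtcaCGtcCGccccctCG
Ezh1: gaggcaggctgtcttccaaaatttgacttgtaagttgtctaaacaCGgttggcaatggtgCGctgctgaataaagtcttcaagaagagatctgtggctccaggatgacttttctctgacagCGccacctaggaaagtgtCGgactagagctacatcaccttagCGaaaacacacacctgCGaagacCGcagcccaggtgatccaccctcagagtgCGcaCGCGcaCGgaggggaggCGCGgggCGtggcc
The Tet2 sequence holds 51 CpG and is 83.6% G or C, whereas the Ezh1 sequence holds 14 and is 55.2% G or C. RefSeq windows of 300 bases, which run from 250 before to 50 after a start site, were found for 52 of the 64 enzyme genes, as 75 windows. Their median was 22 CpG, against 7 over all 32851 windows. The enzyme genes had to reach 5 CPM, whereas the full set of windows was not limited by level. The letters GNACA, 3 bases of any kind and then TGTNC, a palindromic form of the glucocorticoid receptor motif, searched on both strands, occurred in 0 of the 75 windows and in 0.475% of all windows. AGAACA or its reverse complement TGTTCT, one arm of that motif, occurred in 16.0% of the enzyme windows and 19.0% of all windows. Tet2, Ezh2, Hdac9 and Kmt5c had AGAACA itself, and these matches describe letters in a short window only. The Tet2 match begins at base 35 after the start site, outside the sequence shown.

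The levels of the 64 genes spread widely. The libraries tag the 3′ end of each transcript, so CPM is not divided by gene length and stands for transcripts rather than bases covered. Kmt2e at 314 CPM, Kmt2a at 240 CPM and Kmt2c at 206 CPM, placed with the methyltransferases by symbol, had the highest means over all libraries. Kmt2e shares 9.31% of its exon bases with Srpk2 on the other strand, and whether counting used strand is not given in the sources used here. Hdac10 at 5.91 CPM, Kat14 at 7.96 CPM and Kmt5c at 7.96 CPM were just above the limit. Kdm8 at 3.8 CPM, Sirt6 at 3.42 CPM and Dnmt3b at 2.88 CPM lay just below it, so of the DNA methyltransferases only Dnmt1 and Dnmt3a were included.

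The first comparison asked which enzyme genes respond to dexamethasone in each region. Tet2 was higher with dexamethasone in 8 of 8 regions, by 0.38 to 0.72 on the log2 scale, and it was the one enzyme gene that passed in all of them. Few of the others passed in any single region. The test was edgeR's quasi-likelihood test with Benjamini-Hochberg adjustment over all genes of the region, at an adjusted p under 0.05. In CER 5 of 56 tested enzyme genes passed, beside 6.18% of all genes tested there. In PVN 4 of 58 passed, beside 5.63%, and in dCA1 3 of 57, beside 4.68%. The count was 2 of 58 in PFC, beside 6.14%, and 2 of 57 in vCA1, beside 5.45%. It was 2 of 56 in dDG, beside 3.7%, and 2 of 58 in vDG, beside 3.93%. In AMY 1 of 55 passed, beside 5.62%. Over the regions, 11 of 58 enzyme genes passed in at least 1, beside 13.9% of all genes, and Tet2 alone passed in 8, beside 1.27% of all genes tested in 8. Same-numbered animals of the arms shared a library plate in 115 of 115 pairs and a punching date in 109. With that number as a block 5 enzyme genes passed in dCA1, beside 6.38% of all genes in the same fit, 4 in dDG, beside 6.35%, 4 in vDG, beside 4.65%, and 7 in CER, beside 7.38%. The added ones in the first 3 of these were Hdac4 and Kdm4b in dCA1, Ezh1 and Kdm3a in dDG, and Hdac4 and Kdm3a in vDG (edgeR adjusted p from 0.00806 to 0.0399). The shares without the block lay on either side of the background, by a few genes at most, and are not a result about the enzyme genes as a set. Hdac10, Kat14, Kdm1b, Kmt5c, Setd4 and Sirt5 were too low to test within any region.

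**Figure D1:**
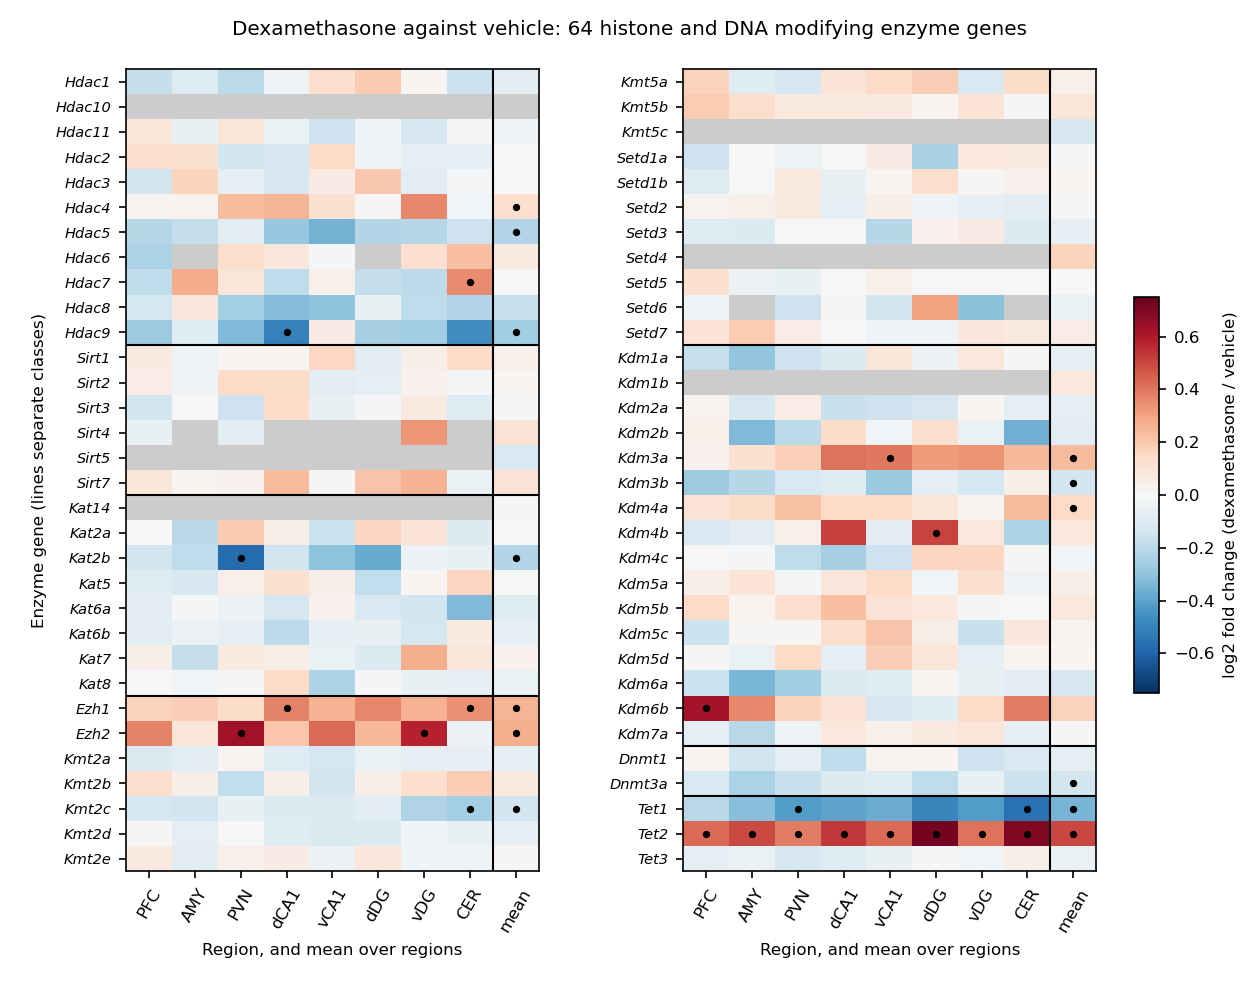
Log2 fold change (dexamethasone over vehicle) of each of the 64 enzyme genes in each region and averaged over regions; black dots mark an adjusted p under 0.05 and grey cells were not tested. The Tet2 line is red with a dot in all 8 regions and the Tet1 line is blue in all 8, while most other cells are pale.

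The second comparison took the mean over the regions of each animal, so that the 15 animals of an arm were the replicates (limma with a trend on log2 CPM, Benjamini-Hochberg adjustment over all genes). In this test 13 of 63 enzyme genes passed, which is 20.6%, beside 20.2% of all 11053 genes. Of these, 6 were higher, beside 9.71% of all genes, and 7 were lower, beside 10.4%. The median log2 difference was -0.00 over the 63 enzyme genes and -0.01 over all genes. The higher genes were Tet2, Ezh2, Ezh1, Kdm3a, Kdm4a and Hdac4. The lower genes were Tet1, Hdac9, Kat2b, Hdac5, Kdm3b, Kmt2c and Dnmt3a. By class, 2 of 3 Tet, 1 of 2 Dnmt, 3 of 18 Kmt, Setd and Ezh, 3 of 16 Kdm, 3 of 10 Hdac, 1 of 8 Kat and 0 of 6 Sirt genes passed. Of the 6 Sirt genes, 1 had an unadjusted p under 0.05.

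**Figure D2:**
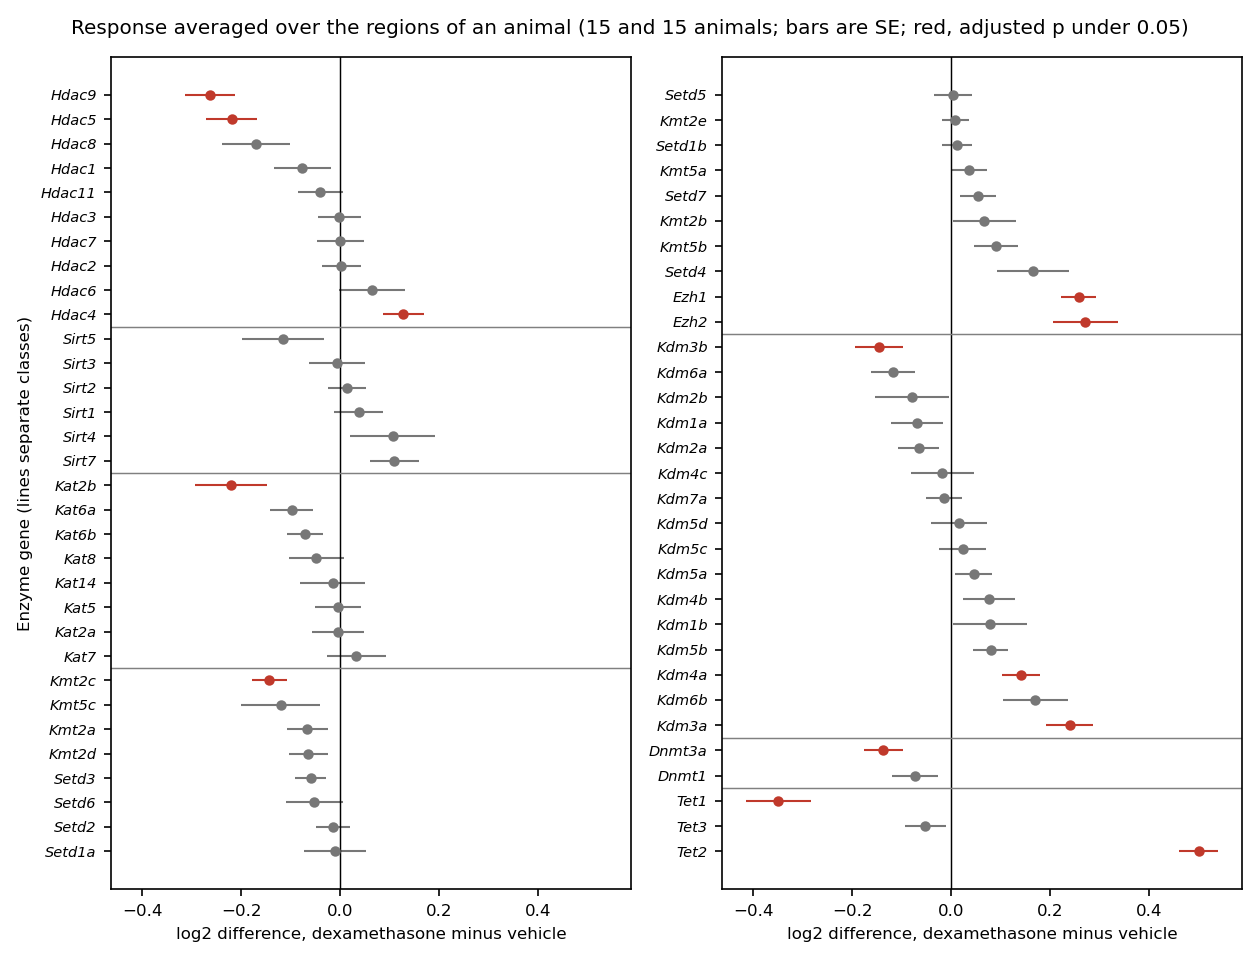
Log2 difference, dexamethasone minus vehicle, averaged over the regions of each animal for 63 enzyme genes, with 15 animals per arm; points are estimates, bars are standard errors and red marks an adjusted p under 0.05. Tet2 lies at 0.50 and Tet1 at -0.35, farther from 0 than any other gene in the plot.

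Markers of non-neuronal cells also moved in this test. Of 8 microglial markers 5 fell, of 8 endothelial markers 6 fell, of 8 oligodendrocyte markers 4 fell, and of 8 astrocyte markers 3 fell and 1 rose, while 0 of 8 neuronal markers passed in limma's test (1 had an unadjusted p under 0.05). Of 8 dentate granule cell markers 1 fell, and of 4 tested cerebellar granule cell markers 1 fell. Of 4 tested choroid plexus markers 0 passed in limma (1 had an unadjusted p under 0.05). The summed microglial list averaged 334 to 661 CPM over the vehicle groups and 226 to 428 CPM over the dexamethasone groups. Its members did not move alike: Cx3cr1 fell by 2.10 and P2ry12 by 0.87 on the log2 scale, and no other of the list passed in a single region, while Csf1r gave -0.03 ± 0.06 and C1qb -0.01 ± 0.05. The endothelial list averaged 575 to 712 CPM with vehicle and 428 to 560 CPM with dexamethasone. The oligodendrocyte list averaged 2605 to 13854 CPM with vehicle and 2656 to 13801 CPM with dexamethasone, and the astrocyte list 5594 to 8327 CPM and 5537 to 7707 CPM. Their part in the enzyme genes' differences was not tested. In punched tissue, fewer cells of a type and less RNA per cell cannot be told apart.

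Averaged over regions, Tet2 and Tet1 had the largest differences of the 63 enzyme genes, in opposite directions, and Tet3 did not pass. Within PVN, PFC and vDG other enzyme genes described below differed by more. Tet2 (ENSMUSG00000040943, chr3:133463679-133545139 on GRCm38) encodes the dioxygenase without a CXXC domain of its own. In dDG it ran from 76.9 to 172 CPM (median 139) in 15 vehicle libraries and from 153 to 298 CPM (median 221) in 15 dexamethasone libraries. Of those dexamethasone libraries 13 lay above the highest vehicle library, and the difference was 0.72 ± 0.11 on the log2 scale (SE, edgeR adjusted p = 1.17e-05). In CER it ran from 82.8 to 166 CPM (median 116) with vehicle and from 143 to 267 CPM (median 180) with dexamethasone. Again 13 of 15 dexamethasone libraries were above all vehicle libraries, with a log2 difference of 0.69 ± 0.09 (edgeR adjusted p = 2.37e-07). The smallest difference was in PVN, where Tet2 ran from 106 to 162 CPM (median 130) and from 140 to 210 CPM (median 172). There it amounted to 0.38 ± 0.08 (edgeR adjusted p = 0.000452), and 9 of 15 dexamethasone libraries exceeded every vehicle library. In the other 5 regions the log2 differences were 0.41 to 0.53, with edgeR adjusted p from 0.0013 in AMY to 0.0138 in PFC, and the groups overlapped. Averaged over regions, the 15 dexamethasone animals all lay above the 15 vehicle animals: relative to the midpoint of the arms, vehicle animals ran from -0.48 to -0.05 (median -0.23) and dexamethasone animals from 0.12 to 0.46 (median 0.24). The difference was 0.50 ± 0.04 (limma adjusted p = 1.01e-13). It was positive in 32 of 32 combinations of region and library plate, and in 32 of 32 combinations of region and punching date with at least 2 libraries in each arm, which leaves out 1 of the 5 dates. On that date there was 1 vehicle animal and 2 dexamethasone animals, and the averaged difference was 0.62.

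Tet1 (ENSMUSG00000047146, chr10:62804570-62899118) encodes a dioxygenase that binds CpG through a CXXC domain. It was much scarcer than Tet2, with 4375 counts over all libraries against 28986. In CER it ran from 18.6 to 52.0 CPM (median 32.7) with vehicle and from 7.88 to 38.9 CPM (median 24.9) with dexamethasone. The groups overlapped, but 14 of 15 dexamethasone libraries lay under the vehicle median, and the log2 difference was -0.56 ± 0.17 (edgeR adjusted p = 0.0361). In PVN the ranges were 23.4 to 51.6 CPM (median 33.3) and 19.5 to 41.6 CPM (median 26.2), with a log2 difference of -0.42 ± 0.12 (edgeR adjusted p = 0.0302). The CER call was lost with no filter on low counts (edgeR adjusted p = 0.0519) and with punching date and plate as factors (0.0538). The other 6 regions gave negative estimates from -0.21 to -0.49 that did not pass (edgeR adjusted p from 0.0884 to 0.685). Averaged over regions, Tet1 was lower by -0.35 ± 0.07 on the log2 scale (limma adjusted p = 5.55e-05), and 10 of 15 dexamethasone animals lay below the lowest vehicle animal. The sign was negative in 29 of 32 combinations of region and plate. Tet3 gave -0.05 ± 0.04 (limma adjusted p = 0.449).

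**Figure D3:**
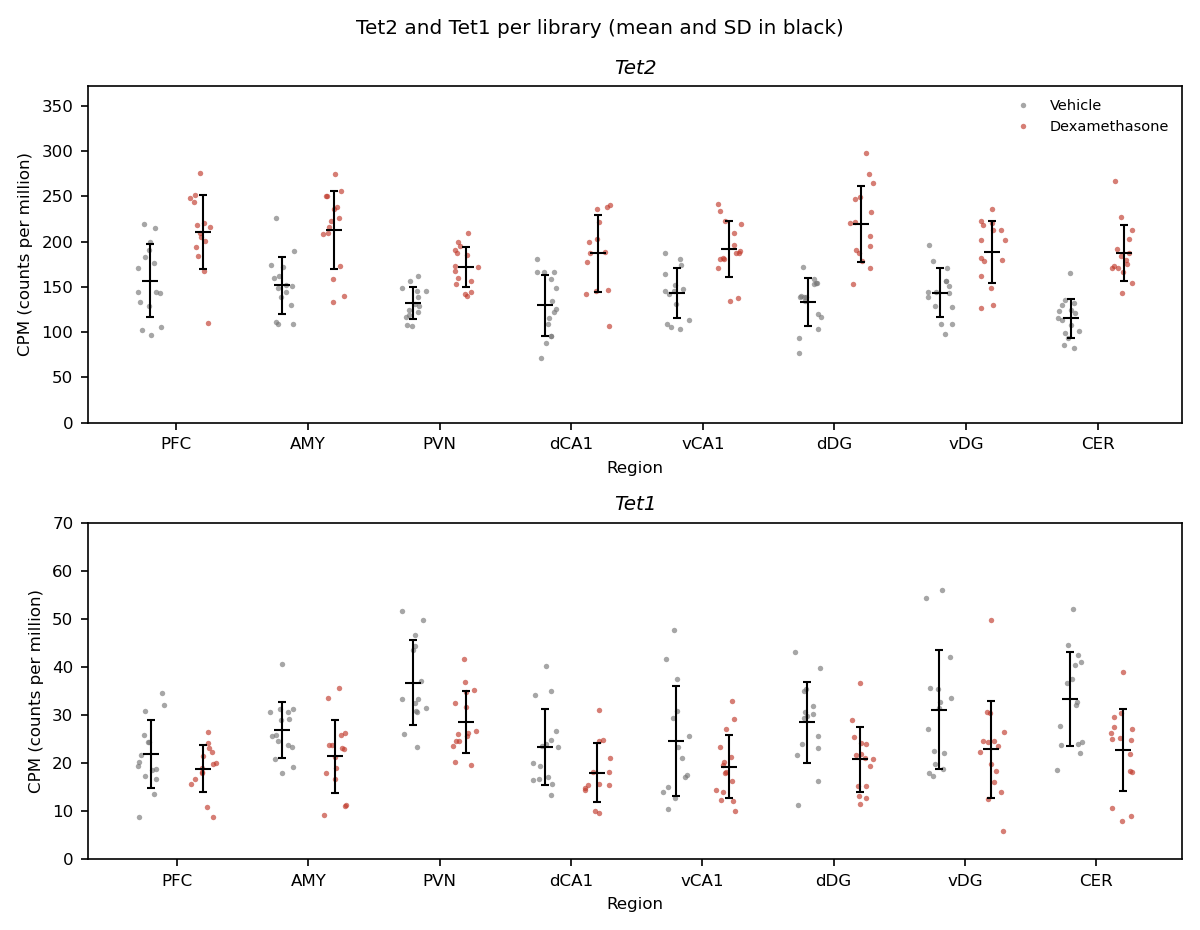
Level of Tet2 and Tet1 in CPM in every library, by region and arm; grey points are vehicle, red points dexamethasone, and black marks show mean and SD. For Tet2 the red points sit above the grey ones in each region, with the least overlap in dDG and CER, while for Tet1 they sit lower and the groups overlap in every region.

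The DNA methyltransferases changed little. Dnmt3a, which sets new methylation and is the abundant one in mature neurons, was lower by -0.14 ± 0.04 on the log2 scale averaged over regions (limma adjusted p = 0.00826). Its estimates were negative in 8 of 8 regions, from -0.06 to -0.24, and none passed alone. In AMY its 15 dexamethasone libraries ran from 115 to 181 CPM (median 157), all below the vehicle median of 183 CPM, although the vehicle range of 114 to 226 CPM enclosed them and the edgeR adjusted p was 0.123. Dnmt1, which copies methylation after replication, gave -0.07 ± 0.05 (limma adjusted p = 0.326).

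Among the methyltransferases, both catalytic subunits of Polycomb repressive complex PRC2, Ezh1 and Ezh2, rose. Ezh1 in dCA1 ran from 70.4 to 112 CPM (median 98.2) with vehicle and from 103 to 145 CPM (median 120) with dexamethasone. Of 13 dexamethasone libraries 9 exceeded the highest vehicle library, and the log2 difference was 0.37 ± 0.08 (edgeR adjusted p = 0.00351). In CER all 15 dexamethasone libraries, at 71.4 to 104 CPM, lay above the vehicle median of 71.1 CPM, and the log2 difference was 0.34 ± 0.09 (edgeR adjusted p = 0.0142). Averaged over regions it was 0.26 ± 0.04 (limma adjusted p = 1.34e-07), with 14 of 15 dexamethasone animals above every vehicle animal. Its estimates were positive in 8 of 8 regions and in 31 of 32 combinations of region and plate. Apart from Tet2 and Tet1, the other genes that passed in the averaged test kept its sign in 22 (Hdac4 and Kat2b) to 28 (Kmt2c) of the 32. These combinations reuse the same animals.

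Ezh2, better known from dividing cells, was scarcer. In PVN it ran from 7.79 to 27.6 CPM (median 14.9) with vehicle and from 7.9 to 39.5 CPM (median 23.5) with dexamethasone, a log2 difference of 0.63 ± 0.17 (edgeR adjusted p = 0.0183). In vDG the ranges were 9.8 to 33.8 CPM (median 21.7) and 17.7 to 47.3 CPM (median 30.2), with 0.58 ± 0.16 (edgeR adjusted p = 0.0341). The groups overlapped in both. The average over regions was 0.27 ± 0.07 (limma adjusted p = 0.00163), and the estimate in CER was -0.04. Of the partners of PRC2, Jarid2 fell by 0.17 ± 0.05 in the averaged test (limma adjusted p = 0.01), while Eed gave -0.04, Suz12 -0.03, Mtf2 0.08, Rbbp4 0.00 and Rbbp7 0.11 and did not pass. Kmt2c, a histone H3 lysine methyltransferase that acts at enhancers, was the third of this class to pass. In CER it ran from 172 to 261 CPM (median 213) with vehicle and from 141 to 213 CPM (median 189) with dexamethasone, all of the latter below the vehicle median. The log2 difference was -0.26 ± 0.07 (edgeR adjusted p = 0.0189), and averaged over regions it was -0.14 ± 0.04 (limma adjusted p = 0.00174). The adjusted p was 0.0511 in CER with no filter on low counts, and 0.0582 in edgeR on counts summed per animal.

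The demethylases moved in both directions. Kdm3a, which removes repressive methyl marks from histone H3, was higher by 0.24 ± 0.05 averaged over regions (limma adjusted p = 0.000111), and 10 of 15 dexamethasone animals exceeded every vehicle animal. Its close relative Kdm3b was lower by -0.15 ± 0.05 (limma adjusted p = 0.0238). Without the vCA1 libraries, left out after the data were seen because the dentate markers there differed between arms, Kdm3b gave -0.12 with a limma adjusted p of 0.166, and it was also lost in edgeR on summed counts (0.0782) and among the libraries of the authors' tables (limma, 0.0541). In vCA1 itself Kdm3a ran from 31 to 71.4 CPM (median 46.7) with vehicle and from 41.4 to 92.7 CPM (median 60) with dexamethasone. That log2 difference was 0.39 ± 0.11 (edgeR adjusted p = 0.0285), and it was 0.42 ± 0.13 with the dentate level as a covariate, where it no longer passed (edgeR adjusted p = 0.0931). Kdm4a was higher by 0.14 ± 0.04 averaged over regions (limma adjusted p = 0.00623). Kdm6b, which removes the trimethyl mark of PRC2, passed in PFC, where it ran from 4.74 to 20.1 CPM (median 13.0) with vehicle and from 9.36 to 35 CPM (median 19.1) with dexamethasone. The log2 difference was 0.62 ± 0.19 (edgeR adjusted p = 0.0345; 0.0569 among the libraries of the authors' tables), and the average over regions was 0.17 ± 0.07 (limma adjusted p = 0.0642, or 0.0248 with the replicate number as a block).

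The deacetylases that passed without the replicate block belong to class IIa, which shuttle between nucleus and cytoplasm, and they did not move alike. Hdac9 in dCA1 ran from 35.7 to 71.0 CPM (median 46.7) with vehicle and from 20.5 to 52.4 CPM (median 34.5) with dexamethasone, and 12 of 13 dexamethasone libraries lay below the vehicle median. The log2 difference was -0.50 ± 0.12 (edgeR adjusted p = 0.00854) and averaged over regions -0.26 ± 0.05 (limma adjusted p = 9.06e-05). Estimates were negative in 7 of 8 regions, with vCA1 at 0.06. In CER Hdac9 passed with the replicate number as a block, at -0.45 ± 0.14 (edgeR adjusted p = 0.0443, or 0.146 without it). Hdac8, of class I, likewise passed in the averaged test with the block, at -0.17 ± 0.06 (limma adjusted p = 0.0392, or 0.0758 without it). Hdac5 was lower by -0.22 ± 0.05 averaged over regions (limma adjusted p = 0.00118), was negative in 8 of 8 regions and passed in none. Hdac4 was higher by 0.13 ± 0.04 (limma adjusted p = 0.0215). It shares 23% of its exon bases with Gm26720 on the other strand, a gene with 3 counts in all. Hdac7 in CER ran from 49.5 to 106 CPM (median 75.9) with vehicle and from 73.4 to 142 CPM (median 94.8) with dexamethasone, a log2 difference of 0.35 ± 0.10 (edgeR adjusted p = 0.0259). Its estimates elsewhere ran from -0.20 to 0.28, and the average was 0.00 ± 0.05.

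Of the acetyltransferases, Kat2b (PCAF), a coactivator that acetylates histone H3, was the one to pass. In PVN it ran from 22.7 to 58.1 CPM (median 37.5) with vehicle and from 10.9 to 33.6 CPM (median 24.9) with dexamethasone. All 15 dexamethasone libraries lay below the vehicle median, although the ranges overlapped, and the log2 difference was -0.57 ± 0.13 (edgeR adjusted p = 0.00324). Averaged over regions it was -0.22 ± 0.07 (limma adjusted p = 0.0248). That call was lost without the vCA1 libraries (-0.22, limma adjusted p = 0.0505) and without the 8 libraries that stood apart (-0.19, limma adjusted p = 0.0526). It was also lost with no filter on low counts (adjusted p = 0.0602) and in edgeR on counts summed per animal (adjusted p = 0.128). Its paralog Kat2a gave -0.00 ± 0.05. With the replicate number as a block Kat6a also passed, at -0.10 averaged over regions (limma adjusted p = 0.0494) and -0.34 in CER (edgeR adjusted p = 0.034).

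The third comparison asked whether a response differed among the 8 regions, as a region-by-treatment interaction over all libraries. Of 63 enzyme genes 1 passed, Kdm4b, a demethylase of histone lysines and a relative of Kdm4a, beside 1.17% of all genes (edgeR F = 4.05, adjusted p = 0.0334). That fit took the libraries of an animal as independent, and with the animal as a block it gave F = 4.11 and an adjusted p of 0.0282. In dDG Kdm4b ran from 20.4 to 56.8 CPM (median 39) with vehicle and from 36.9 to 80.5 CPM (median 56.4) with dexamethasone, 7 of 15 above every vehicle library. The log2 difference was 0.51 ± 0.13 (edgeR adjusted p = 0.0166). In dCA1 the ranges were 21.2 to 68.5 CPM (median 32.9) and 31.2 to 98.1 CPM (median 47.2), with 0.51 ± 0.16 and an edgeR adjusted p of 0.0505, or 0.00806 with the replicate number as a block. With RIN as a covariate this edgeR adjusted p was 0.011, and with upper-quartile scaling 0.0481. Other filters, punching date and plate as factors, the libraries of the authors' tables and DESeq2 gave values between these. In the other 6 regions the estimates ran from -0.23 to 0.08. Within each of 4 plates and of the 4 punching dates with at least 2 libraries in each arm the dDG and dCA1 differences were positive. The mean of 6 dentate markers as log2(CPM + 1) averaged 5.91 with vehicle and 5.97 with dexamethasone in dDG, and 6.27 and 5.85 in dCA1. With that level as a covariate, an alternative added after the data were seen, the interaction gave F = 3.70 and an adjusted p of 0.0577, and with upper-quartile scaling F = 3.79 and 0.0524. Without the 8 libraries that stood apart, also chosen after the data were seen, it gave F = 3.50 and an adjusted p of 0.081, while the dDG difference was 0.49 ± 0.14 (edgeR adjusted p = 0.0309). The next smallest interaction p-values were those of Hdac7 (edgeR adjusted p = 0.279) and Setd4 (0.823). For Tet2 the edgeR adjusted p was 0.9999, which does not show that its response was equal in the regions.

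**Figure D4:**
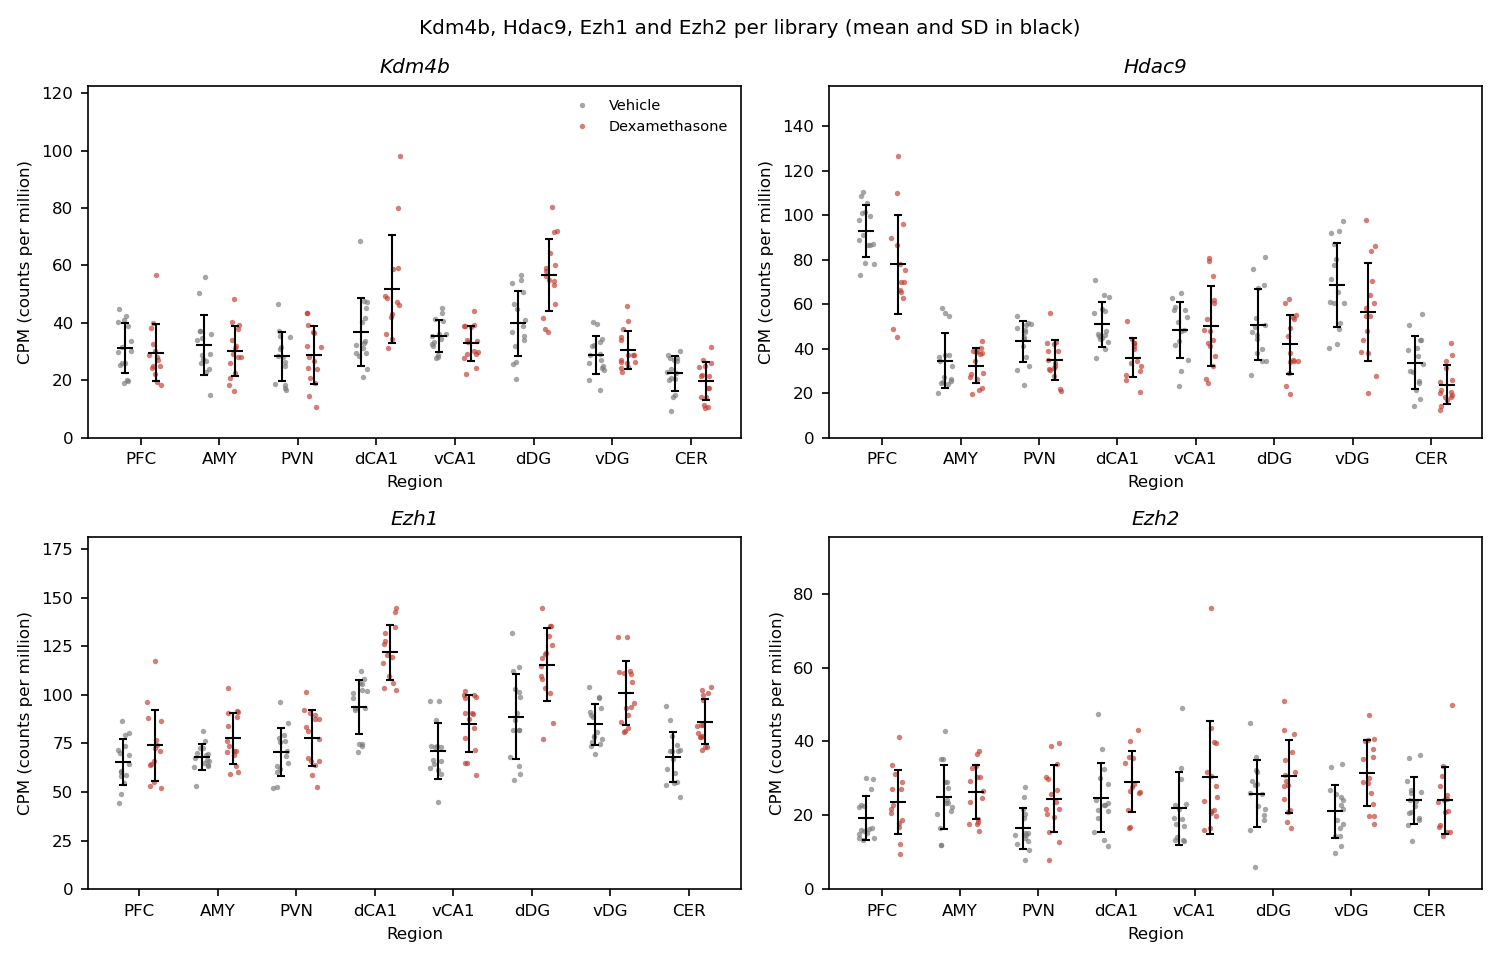
Level of Kdm4b, Hdac9, Ezh1 and Ezh2 in CPM in every library, by region and arm; grey points are vehicle, red points dexamethasone, and black marks show mean and SD. For Kdm4b the red points lie higher in dDG and dCA1, while in the other 6 regions the log2 differences run from -0.23 in CER to 0.08 in vDG, and for Hdac9 the PFC libraries stand above those of the other regions.

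The fourth comparison described the levels of the enzyme genes across regions in vehicle animals alone, with the animal as a block. Of 62 enzyme genes 41 differed among the 8 regions, which is 66.1%, beside 73.3% of all genes (edgeR F test, adjusted p under 0.05). When each region was set against the mean of the other 7, 25 enzyme genes passed in CER, beside 47.9% of all genes, 17 of them lower, beside 23.9%. In dDG 20 passed, beside 32.8%, and 16 of these were higher, beside 17.3%. In dCA1 18 passed, beside 39.1%, and in PFC 18, beside 39.5%. In PVN 15 passed, beside 41.1%, in AMY 9, beside 25.1%, in vCA1 5, beside 19.7%, and in vDG 3, beside 10.6%. RIN was on average higher in PFC than elsewhere, and with RIN as a covariate 15 enzyme genes passed in PFC, beside 32.4% of all genes.

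Hdac9 in PFC was the one enzyme gene with a log2 difference of at least 1 from the other regions, at 1.02 ± 0.09 (edgeR adjusted p = 4.31e-18), beside 5% of all genes in PFC. That size was reached by 7.4% of all genes in CER, 6.76% in PVN, 6.13% in dCA1, 3.54% in dDG, 3.38% in AMY, 1.8% in vCA1 and 1.36% in vDG, but by none of the other enzyme genes. Its 15 vehicle libraries in PFC ran from 73.0 to 111 CPM (median 90.9), whereas those of CER ran from 14.4 to 55.6 CPM (median 33). These groups did not overlap. The other genes with the widest range were picked after their values were seen. Kat2b averaged 55.4 ± 12.5 CPM (SD, n = 15) in CER and 21.7 ± 6.13 CPM (SD, n = 15) in PFC. Kdm6b was highest in dDG, at 30.9 ± 10.9 CPM (SD, n = 15), and lowest in PFC, at 12.5 ± 4.4 CPM (SD, n = 15). Kdm7a, a demethylase of repressive histone marks, averaged 142 ± 26.1 CPM (SD, n = 15) in dCA1. Its dDG mean of 140 ± 24.4 CPM (SD, n = 15) differed from that by less than the spread, while PVN held 60.3 ± 9.21 CPM (SD, n = 14).

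Hdac11, the class IV deacetylase, averaged 158 ± 22 CPM (SD, n = 14) in PVN and 65.4 ± 15.8 CPM (SD, n = 15) in dCA1. Sirt2, a deacetylase abundant in myelin, averaged 168 ± 29.9 CPM (SD, n = 15) in CER and 97.1 ± 15.7 CPM (SD, n = 15) in PFC. The summed oligodendrocyte list averaged 13854 CPM in vehicle CER, 5521 CPM in PVN, 3557 CPM in dCA1 and 2605 CPM in PFC, and its part in these levels was not tested. The flattest genes were Setd5, Kdm6a and Kdm5c, whose highest region exceeded the lowest by factors of 1.15, 1.16 and 1.18.

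**Figure D5:**
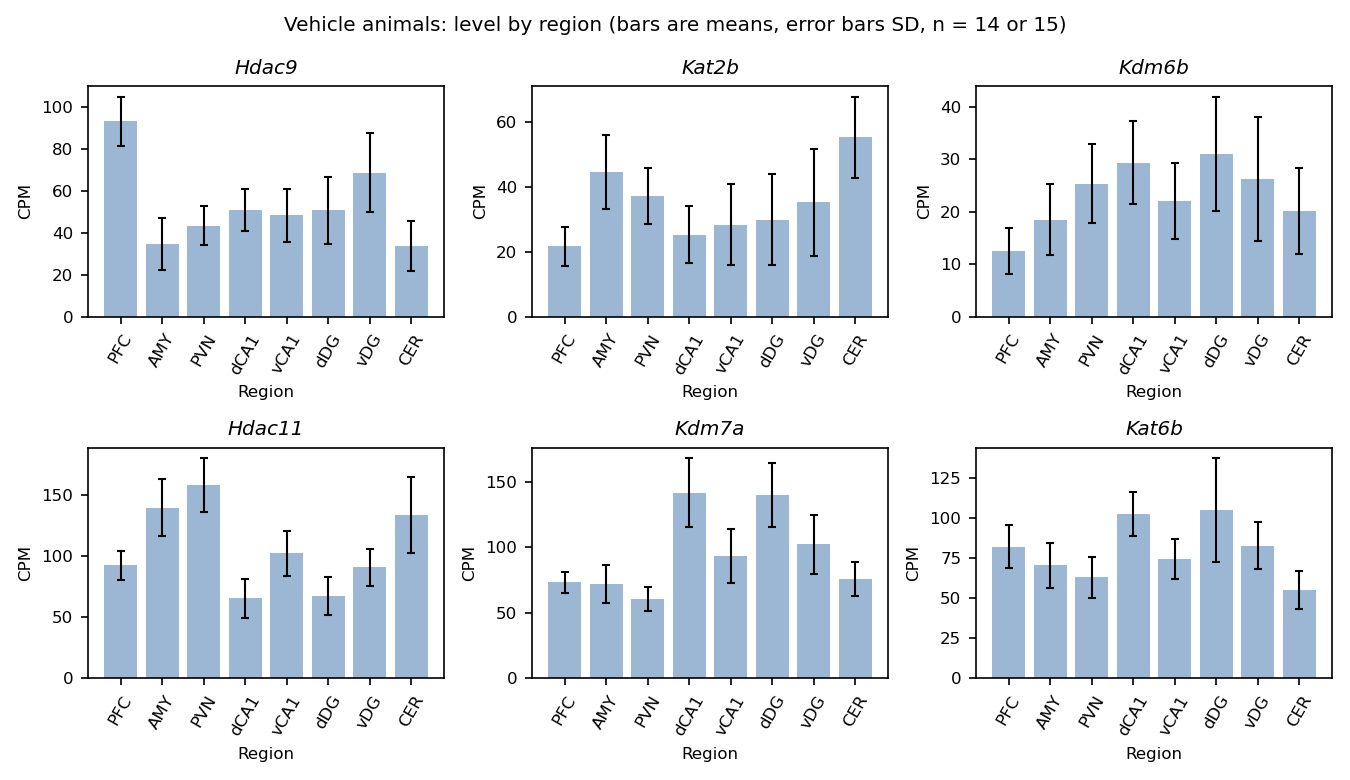
Mean level in CPM by region in vehicle animals for the 6 enzyme genes with the widest range between regions among those that differed; error bars are SD over 14 or 15 libraries. Hdac9 peaks in PFC, Kat2b in CER and Hdac11 in PVN, while Kdm6b and Kdm7a are highest in dCA1 and dDG.

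Partners of these enzymes, taken from lists of subunits and readers, are given for the dexamethasone test averaged over regions. In that test 20.2% of all genes passed. Gadd45g, which has been linked to active DNA demethylation, rose in 8 of 8 regions and by 1.32 ± 0.06 on the log2 scale on average (limma adjusted p = 2.28e-20). Mbd4, a glycosylase of methylated sites, fell by 0.19 ± 0.06 (limma adjusted p = 0.0109). Of 20 subunits of deacetylase complexes 1 rose and 5 fell, among them Chd4, the ATPase of the NuRD complex, which fell in CER and PFC. Of 8 other acetyltransferases Ep300 rose, by 0.13 ± 0.03 (limma adjusted p = 0.000977), and of 15 other methyltransferases Prdm2 rose, by 0.22 ± 0.05 (limma adjusted p = 0.00109). Of 8 other demethylases 2 rose, of 12 subunits of methyltransferase complexes 1 fell, and of 15 readers of acetyl and methyl marks 3 fell.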

How the data were processed

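Libraries were 3′ tag RNA-seq (QuantSeq) with molecular identifiers. Gene counts are used as deposited. Per the submitters' processing notes, the tools were FastQC 0.11.4, cutadapt, UMI-tools 0.5.4, STAR 2.6.0a, featureCounts 1.6.4, DESeq2 1.30.1 and R 4.0.5, with build mm10; the annotation and strand setting are not given in the sources used here. The authors' variance-stabilised log2 tables, which hold 228 libraries, were used only to select libraries in an alternative. Dexamethasone was compared with vehicle within each region with edgeR 4.0.16 (TMM scaling, filterByExpr with a minimum count of 10, quasi-likelihood test); over the mean log2 CPM of each animal (prior count 2, the midpoint of the arms in each region removed) with limma 3.58.1; and as an interaction. Levels in vehicle animals were compared with the animal as a block. P-values were adjusted over all genes by Benjamini-Hochberg, with a threshold of 0.05.

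Libraries of a group differed by a chi-square of at least 1.34 per degree of freedom, so none were taken as duplicates. Each kind of test was tested on simulated data, in which libraries were drawn independently and without animal or plate effects. Alternatives were other scalings, filters, covariates, batches, summed counts, DESeq2 1.42.0 and left-out libraries. Named enzyme genes passed in a region or in the averaged test, had the 3 smallest interaction p-values, the 3 highest or lowest levels, or a vehicle log2 difference of at least 1; others named are class relatives or were chosen after their values were seen. Same-numbered animals are different mice, but their libraries shared a plate in 115 of 115 pairs and a punching date in 109. Their deviations from the group means had median correlations of 0.04 to 0.22 by region, and in no region did every pair exceed 0.1. Values with that number as a block are printed where they change a call. Members, marker lists and partner lists were chosen with earlier results of these data known; the count of 1 partner list is not reported here. Precision is limited by depth, with totals from 268538 to 1451422 counts.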

Additional observations from a re-analysis of the deposited data

Results flagged for a closer look

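Kdm4b was picked out because its response to dexamethasone differed among the 8 regions by the region-by-treatment interaction itself (edgeR quasi-likelihood F test, Benjamini-Hochberg adjusted p = 0.0334). The log2 difference was 0.51 in both dDG and dCA1 and lay between -0.23 and 0.08 in the other 6 regions. Without the 8 libraries that stood apart on a marker list the adjusted p was 0.081. Over all alternatives that gave a value it ran from 0.0121 to 0.081.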

How the results depend on the processing

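No alternative reversed a direction. Of 412 alternative values of single genes, 396 stayed on their side of the threshold in their direction and 16 lost the call. Calls gained by genes that missed the threshold in the main fit, such as those the replicate block added, are not among the 412. Of 133 alternative counts, 115 stayed within 1.5 times. With at least 10 counts in every library, which leaves fewer genes to test, the enzyme genes called were 1 of 40 in PFC (beside 5.62% of all genes in that fit), 1 of 35 in PVN (5.6%), 1 of 34 in vDG (4.04%) and 0 of 28 for the interaction (0.739%, edgeR, with 1 at an unadjusted p under 0.05). In vehicle animals 26 of 28 differed among regions (86.1%), 9 in PFC (49.3%) and 5 in vDG (11.9%). In AMY 2 of 55 passed with punching date and plate as factors (6.78%) and 2 with RIN as a covariate (5.35%). In CER 3 of 64 passed with no filter on low counts (3.7%). In PFC 1 of 58 passed among the libraries of the authors' tables (6.62%), and in vCA1 1 of 57 with the dentate level as a covariate (3.06%). For the interaction 0 of 63 passed in edgeR with upper-quartile scaling (1.21%), 0 with the dentate level as a covariate (1.36%) and 0 without the 8 libraries that stood apart (1.34%), each with 2 at an unadjusted p under 0.05, the last 2 alternatives being added after the data were seen. The cause was not tested. The averaged count stayed between 11 and 16. It was 11 of 64, beside 18.6% of all genes, on summed counts, 12 of 64, beside 12.6%, with no filter on low counts, and 13 to 16 of 63, beside 19.7% to 23%, with another prior count or scaling, punching date as a factor, the replicate block or the libraries of the authors' tables.

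With the replicate block, 5 enzyme genes passed in dCA1, 4 in dDG, 4 in vDG, 7 in CER, 4 in PVN, 2 in PFC, 2 in vCA1 and 1 in AMY, beside 4.65% (vDG) to 8.02% (PFC) of all genes. It was 16 in the averaged test, beside 23%, and 1 for the interaction, beside 1.26%. The block lost none of the calls made without it within regions or in the averaged test, where it added Hdac8, Kat6a and Kdm6b. In CER it added Kat6a and Hdac9. Depth limits the scarce genes most, and 6 enzyme genes could not be tested within any region.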
